A study of Mus musculus with 2 samples.

Results

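The vacuolar proton pump and the lysosome it acidifies were followed here through 36 genes, 18 for subunits and accessory proteins of the pump and 18 for lysosomal proteins and one of their regulators, of 32285 genes in the deposited matrices. The genes were chosen by name and not ranked by a measured value, although earlier results of these data were known. The reason was that thonzonium bromide, the compound given to the treated mice, is described as an inhibitor of proton transport by this pump. Wild type BALB/c mice carried subcutaneous tumours grown from the mouse forestomach carcinoma line MFC and received either PBS (control library) or thonzonium bromide (treated library). The compound was given at 50 mg/kg from day 6 on alternate days, and tumours were taken on day 10. CD45+ cells, that is, cells bearing the leukocyte surface protein encoded by Ptprc, were sorted and profiled by single-cell RNA sequencing of 3′ transcript ends, with 1 library per group. The labels do not say how many mice entered a library.

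The vacuolar H+-ATPase (V-ATPase) is a rotary pump. Its cytosolic V1 sector hydrolyses ATP, and its membrane-embedded V0 sector passes protons into lysosomes, endosomes and secretory granules. The acid activates cathepsins and other hydrolases that degrade endocytosed and autophagic cargo, and several subunits exist as isoforms that differ between tissues, of which the a3 isoform (Tcirg1) and the d2 isoform (Atp6v0d2) are best known from the acid-secreting osteoclast. The transcription factor TFEB, itself a member of the set, binds the palindrome TCACGTGA and its core CACGTG in the promoters of many lysosomal genes.

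The control library held 7803 barcodes and 46348444 unique molecular identifiers (UMIs, each a counted transcript), and the treated library 6724 barcodes and 52973138 UMIs, with 14 barcode sequences in both. The filters kept 6419 cells of the control library, at a median of 4300 UMIs, and 5833 cells of the treated library, at a median of 7259. Ptprc was detected in 88.2% of the kept control cells and 95.4% of the kept treated cells. Cells were assigned to types by marker gates. They are X-like cells in that sense and are called by the type's name below. The gates left 25% of control and 14.6% of treated cells unassigned and set apart 680 and 84 erythroid cells and 110 and 65 cells with markers of tumour or stroma. Levels are counts scaled to a total of 1000000 UMIs (CPM) and summed over the cells of a type and library. With 1 library per group there is no test between groups. Intervals are exact 95% intervals that cover counting error only, not differences between mice or between preparations. A ratio is the treated CPM divided by the control CPM, and it was called past 1.5-fold where it was at least 1.5 or at most 0.667. Ratios are read for genes with at least 50 UMIs over both libraries, in types with at least 50 cells in each.

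Macrophages carried the highest level of more members than any other type. They were the highest of 9 types for 16 of 36 genes in the control and 18 of 36 in the treated library, ahead of plasmacytoid dendritic cells with 8 and 6 and neutrophils with 4 and 6. The share of all genes highest in macrophages is not given here, so these counts are not read as a trait of the members. For several of the genes, among them Atp6v0c, Lamp1, Ctsd and Npc2 in the control, the counting interval overlapped that of the next type. The 18 lysosomal genes summed to 17795 CPM in control and 22313 CPM in treated macrophages, against 1614 and 1626 CPM in NK cells. The 18 V-ATPase genes varied less between types, from 1310 CPM in T cells to 4240 CPM in macrophages of the control library. The lysosomal genes thus differed more between types than the pump genes did.

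**Figure D1:**
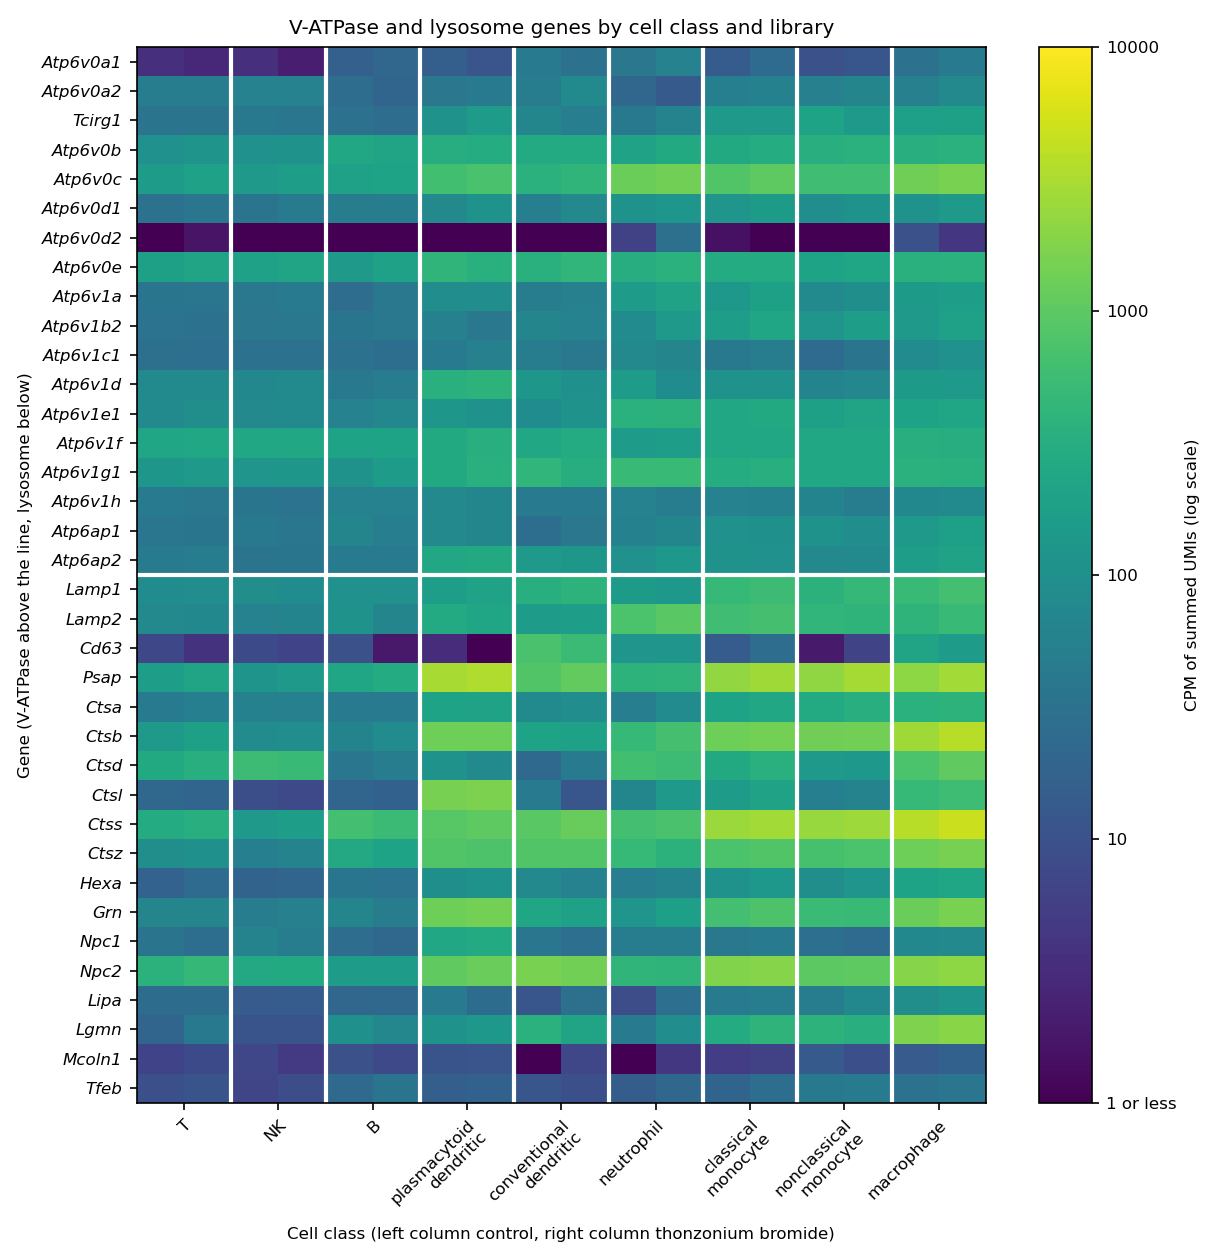
Level of each of the 36 genes (rows) in 9 gated cell types of the control and treated libraries (columns), as CPM on a logarithmic colour scale. The cathepsins other than Ctsl, Lgmn and Npc2 are brightest in the macrophage columns of both libraries, and Ctsl and Psap in the plasmacytoid dendritic columns. Atp6v0d2 is low throughout, at most 30.2 CPM, in treated neutrophils.

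Individual members departed from that order in both libraries alike. Ctsl, a cysteine cathepsin, stood at 1509 CPM in control and 1614 CPM in treated plasmacytoid dendritic cells, and the next type, macrophages, at 484.7 and 562.5 CPM. Psap, the precursor of the saposins that help hydrolases reach sphingolipids, was also highest in plasmacytoid dendritic cells, at 3041 and 3350 CPM. In the same cells the cholesterol exporter Npc1 reached 252.6 and 282 CPM and Atp6v1d, a subunit of the rotor shaft, 340.8 and 388.5 CPM. The counting intervals of all 4 genes lay apart from those of the next type in both libraries, although the treated library held only 34 plasmacytoid dendritic cells. Neutrophils led for Lamp2, a lysosomal membrane glycoprotein, at 728.5 and 936.2 CPM, and for Atp6v1e1, a peripheral stalk subunit, at 362.8 and 371.5 CPM. Conventional dendritic cells led for the tetraspanin Cd63, at 700.9 CPM in control and 539.8 CPM in treated cells, with macrophages next at 214.5 and 157.3 CPM. Cd63 was near absent from plasmacytoid dendritic cells, with 3 control and 0 treated UMIs. For the aspartic cathepsin Ctsd, the lymphoid types differed as well: NK cells held 555.5 CPM in control and 503 CPM in treated cells, T cells 265.1 and 337.3 CPM, and B cells 37.55 and 49.19 CPM.

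The proteolipid Atp6v0c, which forms the proton-carrying ring of V0, was the most abundant pump transcript in phagocytes, at 1348 and 1552 CPM in macrophages and 1279 and 1398 CPM in neutrophils, against 144.2 and 166.2 CPM in NK cells. Processed copies of this gene exist in the mouse genome, so reads that match a copy may be missing from its count. Between the highest and the lowest type of the control, Atp6v0c varied 9.35-fold. Other subunits of both sectors ranged widely in this: in V1, Atp6v1f of the rotor shaft varied 2.07-fold and Atp6v1d 8.12-fold, and in V0 the e subunit Atp6v0e varied 2.79-fold. Tfeb and the lysosomal calcium channel Mcoln1 were scarce everywhere, at 31.11 and 36.83 CPM for Tfeb and 13.92 and 17.33 CPM for Mcoln1 in macrophages.

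Some of the genes have the palindrome bound by TFEB, or its core, in their promoters. That sequence is known from promoters of many lysosomal genes, and the members were chosen as genes of the lysosome and its pump. Its share among them is thus a description and no independent result. RefSeq promoter windows of 300 bases (250 before to 50 after a RefSeq start, build GRCm38.p6) were at hand for 28 of the 36 genes. TCACGTGA, which reads the same on both strands, occurred in a window of 6 of these 28 genes (21.4%) and in 1.12% of all 27025 genes with a window. Its core CACGTG, also a palindrome and contained in TCACGTGA, occurred in 10 of the 28 (35.7%) and in 8.09% of all genes. The 6 genes were 3 of the pump (Atp6v0d1, Atp6v0e, Atp6v1a) and 3 of the lysosome (Ctsa, Ctsd, Mcoln1). A match describes the letters in a window and is neither a shown binding site nor a cause of any level here. The windows of 4 genes are printed in lower case with every CACGTG and its TCACGTGA in capitals: Ctsd, the member with the highest treated-to-control ratio in macrophages, Mcoln1, the channel gene whose window holds both forms, and 1 subunit of each pump sector. They run 5′ to 3′ on the gene's strand. Ctsd lies at chr7:142387778-142388077 (minus strand), Mcoln1 at chr8:3500269-3500568 (plus strand), Atp6v1a at chr16:44139210-44139509 (minus strand) and Atp6v0d1 at chr8:105566015-105566314 (minus strand).
Ctsd: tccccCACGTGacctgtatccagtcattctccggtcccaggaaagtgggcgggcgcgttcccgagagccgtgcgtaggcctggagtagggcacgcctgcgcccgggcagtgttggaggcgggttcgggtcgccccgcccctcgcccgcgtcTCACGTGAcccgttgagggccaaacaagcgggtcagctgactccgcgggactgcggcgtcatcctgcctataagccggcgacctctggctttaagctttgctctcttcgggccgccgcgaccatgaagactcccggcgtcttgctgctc
Mcoln1: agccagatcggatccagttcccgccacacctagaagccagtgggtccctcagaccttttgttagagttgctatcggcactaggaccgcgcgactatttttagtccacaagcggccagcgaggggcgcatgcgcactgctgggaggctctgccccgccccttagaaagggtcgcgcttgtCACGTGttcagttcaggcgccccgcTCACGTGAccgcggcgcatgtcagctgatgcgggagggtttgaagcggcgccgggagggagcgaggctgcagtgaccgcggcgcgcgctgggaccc
Atp6v1a: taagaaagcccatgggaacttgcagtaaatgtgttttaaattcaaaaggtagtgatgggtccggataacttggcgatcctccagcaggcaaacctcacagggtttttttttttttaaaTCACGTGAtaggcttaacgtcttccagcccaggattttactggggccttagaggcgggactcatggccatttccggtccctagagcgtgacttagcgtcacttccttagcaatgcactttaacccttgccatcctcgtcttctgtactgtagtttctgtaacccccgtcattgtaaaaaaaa
Atp6v0d1: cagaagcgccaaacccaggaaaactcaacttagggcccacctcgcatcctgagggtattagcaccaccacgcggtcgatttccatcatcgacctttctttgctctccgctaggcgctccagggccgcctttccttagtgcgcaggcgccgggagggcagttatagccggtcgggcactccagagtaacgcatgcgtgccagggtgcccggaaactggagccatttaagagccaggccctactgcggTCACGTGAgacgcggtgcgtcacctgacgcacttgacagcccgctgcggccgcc

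In the Ctsd window the core of the palindrome starts 98 bases before the RefSeq start, and a core with other flanks starts 245 bases before it. In the Mcoln1 window the same pair start 45 and 71 bases before the RefSeq start. The core of the palindrome starts 131 bases before it in Atp6v1a and 3 bases before in Atp6v0d1. The last 50 bases of each window lie after the RefSeq start. The GENCODE annotation of the same assembly places the 5′ ends of Ctsd, Mcoln1 and Atp6v1a further upstream, at positions 142388038, 3500457 and 44139705 of their chromosomes, so that these 3 palindromes lie inside the genes as annotated there.

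The a subunit anchors V1 to V0 and steers the pump to its membrane, and its isoforms were used differently by T and NK cells and by mononuclear phagocytes. Among UMIs of Atp6v0a1 (a1), Atp6v0a2 (a2), Tcirg1 (a3) and Atp6v0a4 (a4), Tcirg1 made up 40.1% (36.6 to 43.6) in control and 40.3% (37 to 43.6) in treated T cells, and 39.5% and 37.4% in NK cells. Atp6v0a2 was the larger share in both, at 55.8% and 56.4% in T cells and 57.2% and 60.3% in NK cells. In mononuclear phagocytes the order was the reverse. Tcirg1 made up 67.1% (61.7 to 72.1) in control and 60.7% (57 to 64.4) in treated macrophages, 68.5% and 63.3% in classical monocytes and 76.6% and 65.4% in nonclassical monocytes. Plasmacytoid dendritic cells, which are not counted among the mononuclear phagocytes here, shared this order, with Tcirg1 at 66.4% and 73.3%. The intervals of the 3 phagocyte types lay above those of T and NK cells in both libraries. Neutrophils used a1 beside a3, with Atp6v0a1 at 38.2% of 34 UMIs in control and 43.8% of 89 UMIs in treated cells, where T and NK cells had at most 4.17%. B cells and conventional dendritic cells spread their UMIs over all 3 isoforms, but on only 67 to 143 UMIs. Atp6v0a4, the isoform of kidney and inner ear, gave 3 UMIs in each library over all kept cells. A share compares transcripts whose 3′ ends may be captured unequally, which bears on the size of each share.

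Tcirg1 took a smaller share in treated than in control cells of all 3 phagocyte subtypes, with counting intervals that overlapped between libraries in each. Over all mononuclear phagocytes it was 69% (66.2 to 71.6) in control and 63.1% (61.5 to 64.7) in treated cells, with intervals apart. In nonclassical monocytes its level was 211.7 CPM in control and 144.8 CPM in treated cells, a ratio of 0.684 (0.538 to 0.873). In classical monocytes it was 148 and 141.2 CPM (ratio 0.955, 0.852 to 1.07), and in macrophages 180.1 and 186.3 CPM (1.04, 0.877 to 1.22). The lower share in the last of these went with more a2 UMIs: Atp6v0a2 stood at 55.67 and 76.27 CPM (1.37, 1.03 to 1.84). The nonclassical value sets unlike cells side by side, since 63.4% of the control cells lay in a cluster of shallow cells (cluster 3) and 60.4% of the treated cells in a deeper one (cluster 2), with medians of 1885 and 6013 UMIs over the type.

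The isoform pairs of the B, E, e and C subunits were used almost wholly as 1 gene. Atp6v1b2 gave all B subunit UMIs of the 9 types in both libraries, since Atp6v1b1 had none, and likewise Atp6v1e1 gave all E subunit UMIs. Atp6v0e held at least 99.9% of e subunit UMIs and Atp6v1c1 at least 98.4% of C subunit UMIs. For the G subunit, Atp6v1g1 held at least 95.2% of UMIs. Atp6v1g3 gave 59 of 1571 UMIs in control NK cells (3.76%, 2.87 to 4.82) and 39 of 1735 in treated NK cells (2.25%, 1.6 to 3.06), and 17 of 1275 and 4 of 1446 in T cells. Atp6v1g2 gave 17 and 35 of the same totals in NK cells and 28 and 23 in T cells.

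Atp6v0d2, the d2 subunit, was almost absent, with 53 UMIs in 16 control cells and 73 UMIs in 38 treated cells, against 2063 and 4068 UMIs of Atp6v0d1. A single control barcode held 23 of the 53. This barcode, with 26671 UMIs over 4925 genes against a library median of 4300 UMIs, was 1 of 2 gated on osteoclast markers, and it held 288 of the 325 control UMIs of Ctsk, the collagen-degrading cathepsin of osteoclasts, 172 of Acp5 (tartrate-resistant phosphatase), 212 of Mmp9 (a gelatinase) and all 14 of the receptor Oscar. Its pump isoforms were Tcirg1 with 23 UMIs against 1 of Atp6v0a2 and 0 of Atp6v0a1, and Atp6v0d2 with 23 against 1 of Atp6v0d1. It held no UMI of C1qa, C1qb, C1qc, Mrc1, Trem2 or the tumour and stroma markers, but 19 UMIs of Ms4a7, the remaining macrophage marker. Calcr and Itgb3, also osteoclast genes, were at 0. The other osteoclast-gated barcode, with 3345 UMIs, had no UMI of Ctsk or Atp6v0d2, and the treated library had no cell in this gate.

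In other cells the d2 transcript came in small counts, at most 12 UMIs in a cell. T cells held none in the control library, and 16 UMIs lay in 13 of 1235 treated cells. Their summed level was 5 times the 0.322 CPM that a count of 0 allows (3 UMIs over the library's T cells). NK cells held 0 and 11 UMIs, a treated level 3.58 times the limit for their control count. Both figures leave out the counting error of the treated UMIs and are not lower bounds. B cells held 0 UMIs in 230 control and 500 treated cells, at 3696 UMIs per treated cell compared with 6829 per treated T cell. Of the 20 UMIs in treated neutrophils, 12 were in 1 cell, and control neutrophils held 2. These were 19.4% of 103 d subunit UMIs in treated and 5.13% of 39 in control neutrophils. Macrophages held 12 control and 10 treated UMIs. No type reached 50 UMIs, so no ratio is read for this gene.

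Between libraries, most members stood higher in treated macrophages. Lysosomal members did so in 17 of 18 cases, with a median log2 ratio of 0.28, and V-ATPase members in 14 of 17 measured cases, with a median of 0.17. The median over all 6636 measured genes was 0.05, and 56.4% of them were higher. Ctsd stood at 736 CPM in 210 control and 1039 CPM in 249 treated macrophages, a ratio of 1.41 (1.31 to 1.53). Ctsb, a cysteine cathepsin, stood at 2737 and 3739 CPM (1.37, 1.31 to 1.42), and Psap at 2092 and 2808 CPM (1.34, 1.28 to 1.41). Ctss, the cathepsin that trims the invariant chain of MHC class II, stood at 3747 and 4856 CPM (1.3, 1.25 to 1.34). All 4 encode soluble proteins of the lysosome lumen and were among the most abundant members in macrophages. The legumain gene Lgmn, an asparaginyl endopeptidase, stood at 1665 and 1927 CPM (1.16, 1.1 to 1.22). Of the membrane proteins, Lamp1 stood at 515.8 and 648.7 CPM (1.26, 1.15 to 1.38) and Lamp2 at 394.6 and 492.7 CPM (1.25, 1.12 to 1.39). The one lysosomal exception was Cd63, at 214.5 CPM in control and 157.3 CPM in treated macrophages (0.733, 0.624 to 0.863).

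In the pump, the nucleotide-binding subunit Atp6v1b2 stood at 148.2 and 191.5 CPM in macrophages (1.29, 1.09 to 1.54). Atp6v0c stood at 1348 and 1552 CPM (1.15, 1.09 to 1.22), and the accessory protein Atp6ap1 at 144.1 and 181.1 CPM (1.26, 1.05 to 1.51). Of the 3 measured pump members below 1, Atp6v1f stood at 338.9 and 309.4 CPM (0.913, 0.808 to 1.03). Atp6v1d stood at 153.9 and 146.9 CPM (0.955, 0.796 to 1.15), and both intervals included 1. The remaining one was the G subunit gene Atp6v1g1, with 432 control and 792 treated UMIs. No member passed 1.5-fold in macrophages in either direction, where 6.75% of all measured genes were that much higher and 3.86% that much lower. Counting intervals lay above 1 for 18 of the 35 measured members and below 1 for 1, against 11.8% and 7.08% of all genes. Members are abundant and their intervals narrow, so this share is not like for like.

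**Figure D2:**
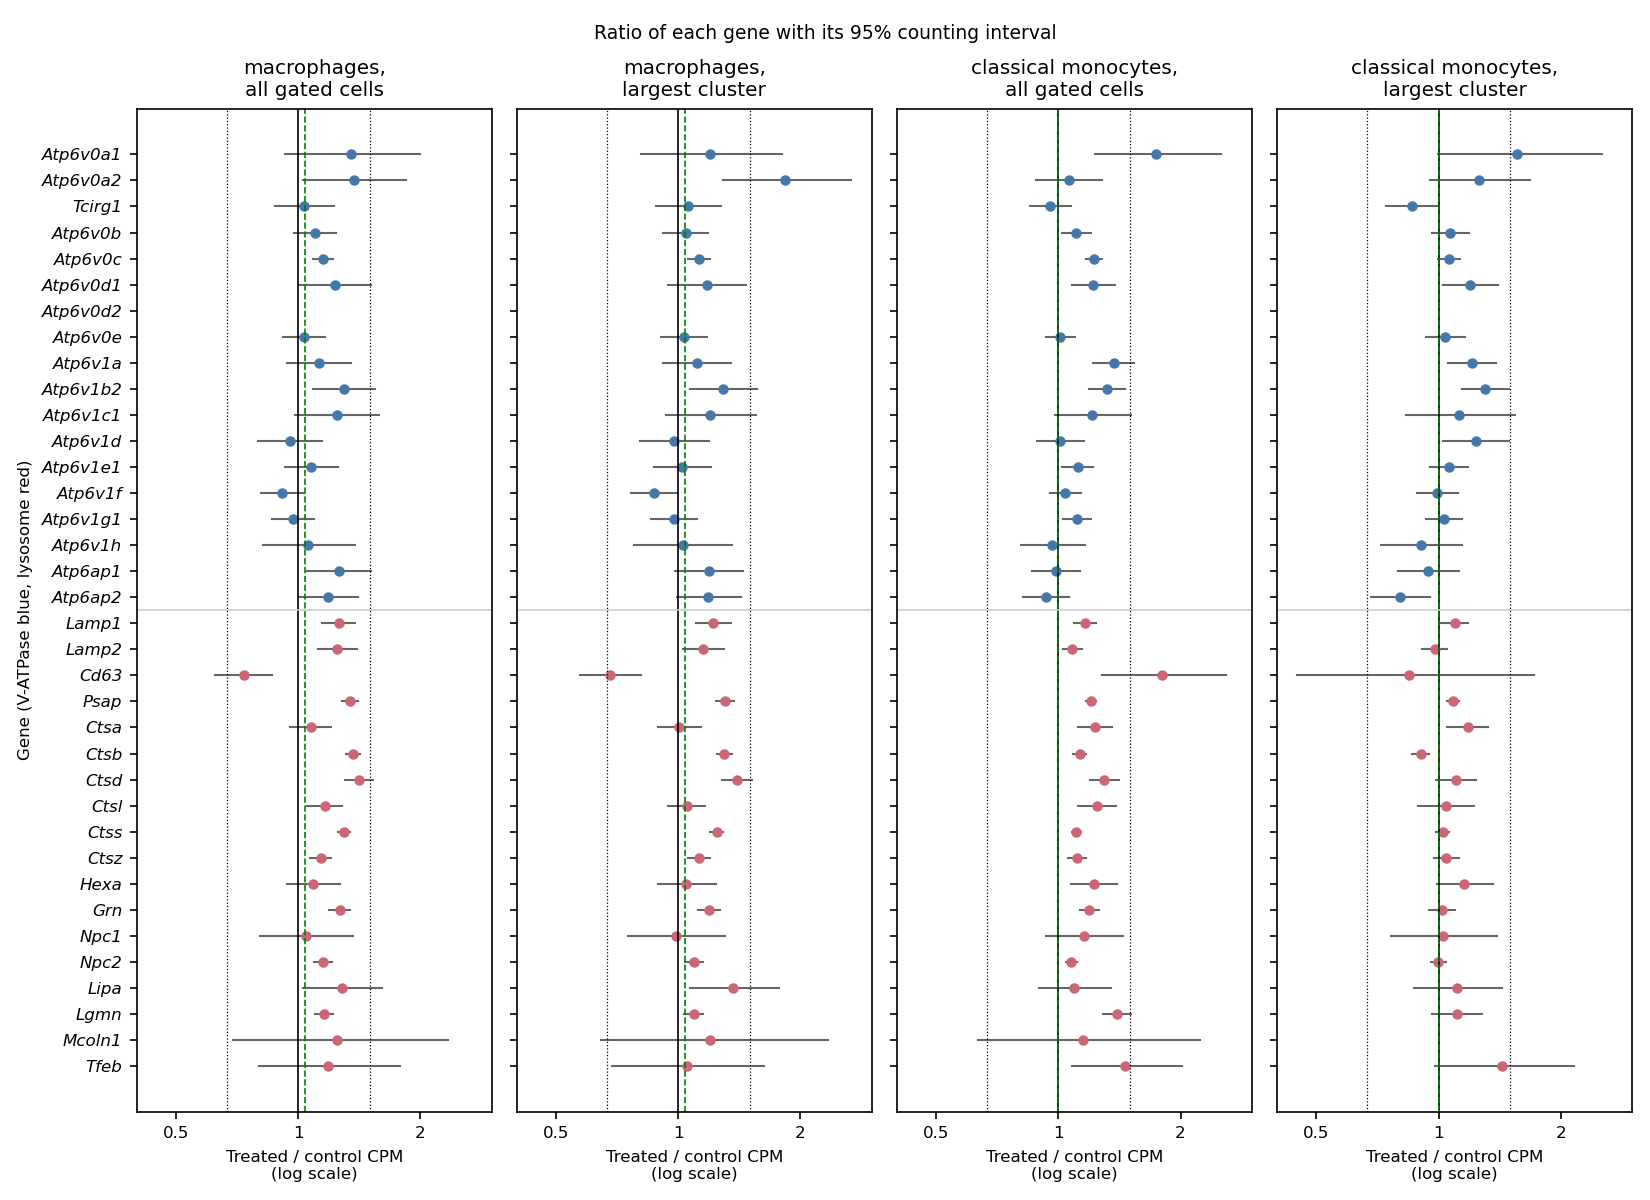
Treated-to-control ratio of CPM (x axis, log scale) for each member (y axis) with its exact 95% counting interval, for all gated macrophages, the macrophages of their largest cluster, all classical monocytes and those of their largest cluster. Dotted lines mark 1.5-fold and the green dashed line the median of all genes. Lysosomal genes (red) lie mostly right of 1 in both macrophage panels, with Cd63 far left, and close to 1 in the last panel.

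Macrophages of the 2 libraries were not made up alike, and their values were also read within clusters of cells with similar expression. Of the control macrophages, 47.6% lay in cluster 4, with a median of 9031 UMIs, and 40.5% in cluster 18, with a median of 885 UMIs. Of the treated macrophages, 76.7% lay in cluster 4 and 12% in cluster 18. Within cluster 4, which held 100 control and 191 treated macrophages, 16 of 18 lysosomal members and 14 of 17 V-ATPase members were higher in treated cells, with medians of 0.19 and 0.15 beside 0.05 for all 6227 genes measured there. Ctsd was at 756.4 and 1056 CPM (1.4, 1.28 to 1.52), Ctsb at 3001 and 3893 CPM (1.3, 1.24 to 1.35) and Psap at 2212 and 2881 CPM (1.3, 1.24 to 1.37). Lgmn was at 1842 and 2008 CPM (1.09, 1.03 to 1.15) and Cd63 at 226.5 and 154.1 CPM (0.68, 0.572 to 0.811). Atp6v0a2 was at 41 and 75.15 CPM (1.83, 1.29 to 2.66), the 1 member past 1.5-fold there. The Ctsd, Ctsb, Psap and Cd63 ratios within the deep cluster were close to those over all macrophages. The lysosomal median was 0.19 there and 0.28 over all macrophages. Cluster 4 held 975706 of the 1221492 control and 2115906 of the 2307655 treated macrophage UMIs. The 2 readings thus share most of their counts, and their closeness is no separate support. Cluster 18 held 85 control and 30 treated macrophages, the latter fewer than the 50 cells asked of a type, and 11 of 18 lysosomal members reached 50 UMIs there. All 11 were higher in treated cells, with a median of 0.70 beside -0.02 for all genes. Ctsd was at 884.8 and 1973 CPM in that cluster, Ctsb at 2310 and 4246 CPM, and Cd63 at 321 and 677.7 CPM (2.11, 1.3 to 3.41). Cd63 was thus lower in treated cells of the deep cluster and higher in those of the shallow one. The 12 control UMIs of Atp6v0d2 were not in cluster 4, where the control held 0 and the treated library 5.

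Marker levels of macrophages were close in the 2 libraries, with all 6 macrophage markers detected and summing to 9460 CPM in control and 9596 CPM in treated cells. All 5 classical monocyte markers were detected too and summed to 2194 CPM in control and 3862 CPM in treated macrophages. Neutrophil markers summed to 136.7 CPM, with Retnlg and Cxcr2 at 0, and to 306.8 CPM with all 7 detected. Other lists were lower in treated macrophages. Erythroid markers summed to 832.6 CPM in control (6 of 7 detected) and 126.1 CPM in treated cells (4 detected). NK cell markers summed to 54.85 and 19.5 CPM and T cell markers to 68.77 and 52.87 CPM, all detected in both. Gzmc, at 8758 CPM in control NK cells, stood at 157.2 CPM in control and 29.47 CPM in treated macrophages. The part these had in the macrophage ratios was not tested.

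Classical monocytes gave a similar picture over the whole gate and a smaller one within their own cluster. Over 389 control and 967 treated cells, 18 of 18 lysosomal members were higher in treated cells (median log2 ratio 0.23) and 13 of 17 V-ATPase members (median 0.15), beside a median of -0.005 over all 8765 genes, of which 49.3% were higher. Lgmn stood at 287.2 and 400.5 CPM (1.4, 1.29 to 1.51), Ctsd at 266.4 and 344.9 CPM (1.3, 1.19 to 1.41) and the catalytic subunit Atp6v1a at 137.4 and 187.8 CPM (1.37, 1.22 to 1.53). Atp6v1b2 stood at 171.4 and 225.8 CPM (1.32, 1.19 to 1.46) and Tfeb at 19.3 and 28.18 CPM (1.46, 1.08 to 2.01). 2 scarce members passed 1.5-fold, both higher: Atp6v0a1 at 14.38 and 25.03 CPM (1.74, 1.23 to 2.52) and Cd63 at 14.76 and 26.55 CPM (1.8, 1.28 to 2.59). That is 2 of 35 measured members, where 4.23% of all genes were that much higher and 5.73% that much lower. Intervals lay above 1 for 23 of 35 members and below 1 for 0, against 11.1% and 12.6% of all genes.

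Within cluster 2, which held 48.8% of the control and 62% of the treated classical monocytes, most of the lysosomal difference was gone. The lysosomal median was 0.06, with 13 of 17 members higher, and the all-gene median 0.003. Ctsb stood at 1270 and 1146 CPM there (0.903, 0.859 to 0.949), on the other side of 1 from its ratio of 1.13 (1.09 to 1.17) over the whole gate. Lgmn stood at 156 and 173.2 CPM (1.11, 0.965 to 1.28) and Cd63 at 8.31 and 7.03 CPM (0.846, 0.447 to 1.72). Of the V1 head subunits, Atp6v1b2 was at 173.9 and 226.7 CPM (1.3, 1.14 to 1.49), close to its ratio over the whole gate, and Atp6v1a at 166.9 and 201.3 CPM (1.21, 1.06 to 1.38), below its ratio there. Cluster 4, where most macrophages lay, held 15.7% of the control and 23.4% of the treated classical monocytes. Macrophage markers in the gate summed to 166.5 CPM in control and 300.4 CPM in treated cells, all 6 detected in both. In cells with no UMI of C1qa, C1qb or C1qc the Lgmn ratio was 1.51 (1.37 to 1.67), as large as in all classical monocytes.

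**Figure D3:**
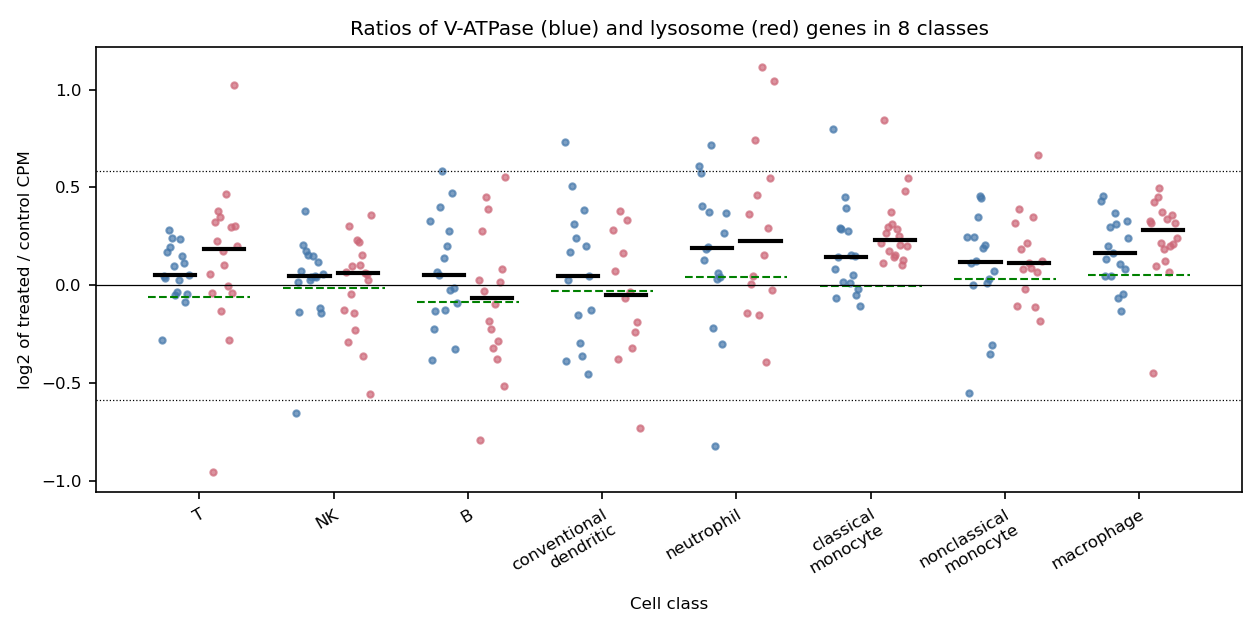
Log2 ratio of treated to control CPM (y axis) for every measured member in 8 cell types (x axis), V-ATPase and lysosomal genes apart, with their medians as bars and the median of all genes as a green dashed line. Dotted lines mark 1.5-fold. Both medians lie above the all-gene line in every type shown except conventional dendritic cells, whose lysosomal median of -0.051 lies below it.

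Over all mononuclear phagocytes taken as 1 type (836 control and 1687 treated cells), 15 of 18 lysosomal and 10 of 17 V-ATPase members were higher, with medians of 0.15 and 0.07 beside -0.03 for all genes. No member passed 1.5-fold, where 2.36% of all genes were that much higher and 6.77% that much lower. In nonclassical monocytes 11 of 15 lysosomal and 13 of 16 V-ATPase members were higher (medians 0.11 and 0.12, all genes 0.03). Lipa, the acid lipase that releases cholesterol from its esters, was the 1 of 31 measured members past 1.5-fold, at 47.04 and 74.56 CPM (1.58, 1.01 to 2.58), where 8.62% of all genes were that much higher and 8.57% that much lower. Psap stood at 2184 and 2858 CPM (1.31, 1.22 to 1.4) in the same cells, which were taken from unlike clusters as described for Tcirg1.

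Neutrophils, with 116 control and 183 treated cells, had 6 of 30 measured members past 1.5-fold, 5 higher and 1 lower, where 10.7% of all genes were that much higher and 11.5% that much lower. Ctsl stood at 68.39 and 148 CPM (2.16, 1.36 to 3.57), Lgmn at 44.6 and 92.11 CPM (2.07, 1.16 to 3.91) and Atp6v1b2 at 86.23 and 141.9 CPM (1.65, 1.08 to 2.59). The intervals of the other 2 higher members, Atp6v0a1 and Ctsa, included 1. Atp6v1d stood lower, at 154.6 and 87.58 CPM (0.566, 0.383 to 0.84). These are counts of 13 to 98 UMIs a library, and 19.8% of control against 1.64% of treated neutrophils lay in cluster 8, whose control cells had a median of 846 UMIs. The lysosomal median of neutrophils, 0.225, turned to -0.135 without the 5% deepest cells. Markers of other types differed between the libraries too. T cell markers summed to 315.2 CPM in control and 48.32 CPM in treated neutrophils, NK cell markers to 196.3 and 24.16 CPM and erythroid markers to 2739 and 191.8 CPM. Nonclassical monocyte markers went the other way, at 47.58 and 66.44 CPM. The part of these in the neutrophil ratios was not tested. In conventional dendritic cells, 50 control and 73 treated, 1 of 27 measured members was past 1.5-fold higher (Atp6v0a2, 47.04 and 78.12 CPM, 1.66, 0.994 to 2.89) and 1 lower (Lgmn, 355.2 and 214.3 CPM, 0.603, 0.483 to 0.754), where 8.53% of all genes were that much higher and 9.72% that much lower. Lgmn thus stood lower in treated conventional dendritic cells and higher in treated neutrophils and classical monocytes. That these ratios differ was not tested. The conventional dendritic cells of the libraries were made up differently, with 30% of control and 50.7% of treated cells in cluster 9 and 68% and 49.3% in cluster 20. Their classical monocyte markers, of which 3 of 5 were detected in each library, summed to 870.3 CPM in control (F13a1 and Fn1 at 0) and 250.9 CPM in treated cells (Vcan and F13a1 at 0). The part of these in the Lgmn ratio was not tested.

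In T cells 12 of 18 lysosomal and 12 of 17 V-ATPase members were higher in treated cells, with medians of 0.187 and 0.055 beside -0.06 for all 10387 genes, of which 39.6% were higher. Intervals lay above 1 for 14 of 35 members and below 1 for 2, against 9.97% and 20% of all genes. Lgmn stood at 20.05 CPM in control and 40.73 CPM in treated T cells (2.03, 1.7 to 2.43) and Cd63 at 7.4 and 3.82 CPM (0.516, 0.338 to 0.778). They were the 2 of 35 members past 1.5-fold, where 2.87% of all genes were that much higher and 4.3% that much lower. Macrophage markers moved with the first: C1qa, C1qb and C1qc summed to 39.36 CPM in control and 96.84 CPM in treated T cells, and all 6 macrophage markers, each detected in both, to 47.51 and 114.1 CPM. In T cells with no C1q UMI, which left out 165 control and 124 treated cells, Lgmn stood at 17.12 and 18.52 CPM (1.08, 0.857 to 1.37), Ctsb at 143.4 and 157.7 CPM (1.1, 1.02 to 1.19) and Ctss at 289.6 and 264.8 CPM (0.914, 0.863 to 0.969). In all T cells Ctsb had been at 146.1 and 190.4 CPM (1.3, 1.22 to 1.4) and Ctss at 288.5 and 325.7 CPM (1.13, 1.07 to 1.19). Ctsd differed less between the 2 readings, at 264.1 and 326.8 CPM without those cells (1.24, 1.17 to 1.31) and 265.1 and 337.3 CPM in all T cells (1.27, 1.21 to 1.34). Cd63 stood at 6.95 and 2.63 CPM without them (0.378, 0.222 to 0.625). The lysosomal median itself turned to -0.063 with each cell scaled to the same total and to -0.112 with cells thinned to 1000 UMIs, so no direction is read for the T cell group. T cells of the libraries were also made up differently, with 31.5% of control and 14.7% of treated cells in cluster 6 and 12% and 30.4% in cluster 10, and the part of this in the T cell ratios was not tested.

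NK and B cells had small medians. In NK cells 11 of 18 lysosomal and 13 of 17 V-ATPase members were higher, with medians of 0.06 and 0.05 beside -0.01 for all genes, and the lysosomal median turned to -0.101 with each cell scaled alike. Npc1 stood at 61.04 and 47.49 CPM (0.778, 0.698 to 0.867), Ctsd at 555.5 and 503 CPM (0.905, 0.875 to 0.937) and Atp6v0d1 at 34.98 and 45.52 CPM (1.3, 1.15 to 1.48). The 1 of 35 members past 1.5-fold was Atp6v0a1, at 3.46 and 2.2 CPM (0.636, 0.38 to 1.05), where 2.58% of all genes were that much higher and 2.94% that much lower. In B cells 7 of 16 lysosomal and 9 of 17 V-ATPase members were higher (medians -0.06 and 0.05, all genes -0.09). Lamp2 was the 1 of 33 past 1.5-fold, at 113.8 and 65.75 CPM (0.578, 0.445 to 0.753), where 5.25% of all genes were that much higher and 8.71% that much lower. Lgmn stood at 100.5 and 70.48 CPM in B cells (0.701, 0.537 to 0.92), with C1q genes at 106 CPM in control and 11.35 CPM in treated cells, and their part in that ratio was not tested.

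Other genes of the pathway, listed apart from the members, were read the same way in macrophages. Of 37 other lysosomal hydrolases 32 were measured and 26 were higher in treated cells, with a median log2 ratio of 0.275, close to that of the lysosomal members. Ppt1, a palmitoyl thioesterase, stood at 123.6 and 193.7 CPM (1.57, 1.3 to 1.9). Other lysosomal membrane and trafficking proteins were higher in 17 of 23 cases (median 0.175), and genes of mTORC1 docking and the TFEB family in 13 of 17 (median 0.08). Autophagy genes were higher in 8 of 15 (median 0.015). Their receptor Sqstm1 stood at 179.3 and 134.3 CPM (0.749, 0.628 to 0.895). Proteins that assemble or bind the pump were higher in 7 of 11 (median 0.05), and the lowest of them was Ncoa7, whose product binds the pump, at 94.97 and 61.97 CPM (0.652, 0.507 to 0.841). Autophagy genes were thus divided about evenly between higher and lower, where 56.4% of all measured genes were higher. That the lists differ was not tested.

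**Figure D4:**
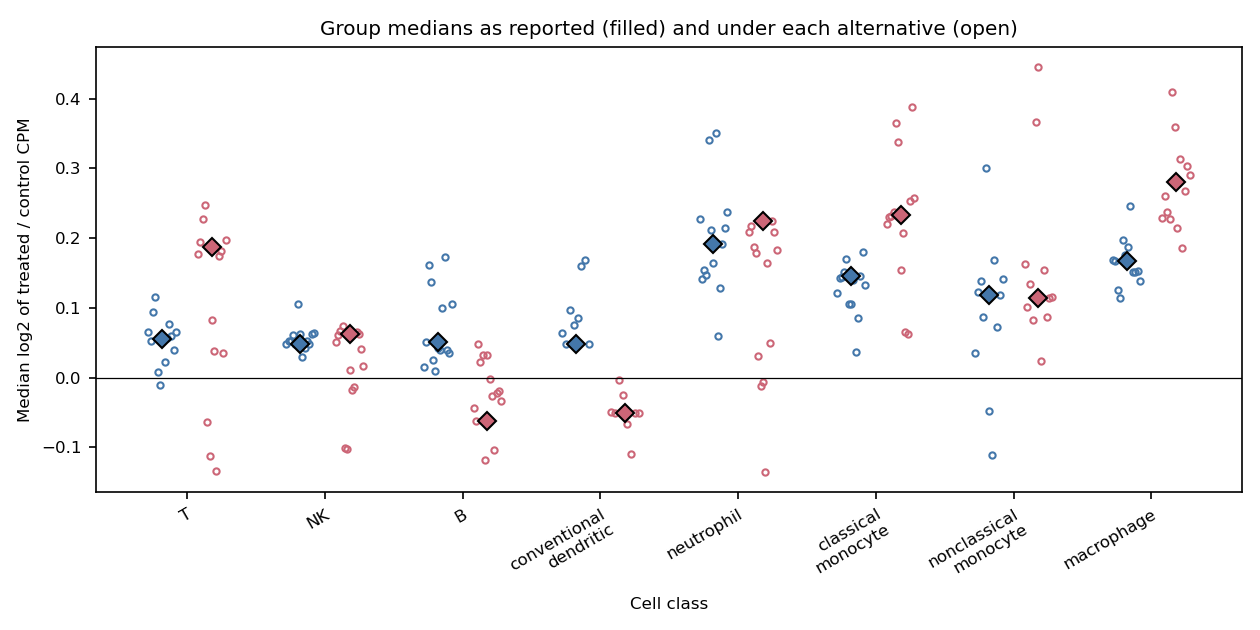
Median log2 ratio of treated to control CPM (y axis) of the V-ATPase (blue) and lysosomal (red) members by cell type (x axis), with the reported value filled and the value under each other processing choice open. The lysosomal median of macrophages stays between 0.19 and 0.41, while those of T cells, NK cells, B cells and neutrophils lie on both sides of 0.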

How the data were processed

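Sorted CD45+ tumour cells of 1 control and 1 treated library were analysed, grouped by each sample's treatment label. The deposited values are integer UMI counts per gene and barcode, written by the authors with Cell Ranger 6.1.2 per the file headers. Genome mm10, R 3.5.3 and Seurat 3.0 are listed in the submitters' processing notes, and the labels' protocols name a 10x Genomics 3′ V2 kit. The lowest barcode totals were 500 and 501 UMIs. No doublets were removed.

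Barcodes with under 200 detected genes or over 20% mitochondrial UMIs were dropped. A cell took the type whose marker list had the largest share of markers detected, with at least 2 markers and a lead of 15 percentage points. The 3 phagocyte lists were first pooled. At least 2 tumour or stroma markers, or over 10% haemoglobin UMIs, put a cell apart. Counts were summed per type and library and scaled to 1000000 UMIs. Levels have exact Poisson intervals, ratios exact conditional binomial intervals and shares exact Clopper-Pearson intervals, all at 95%. A count of 0 was given the limit of 3 counts. Clusters were Leiden groups over 30 components of 2000 variable genes, without the members. Named genes were the members with the highest and lowest ratios among those with at least 200 UMIs, the most abundant member and all a and d isoforms of each type, and the extremes of each wider list. Others were named after their values were seen: members past 1.5-fold on fewer UMIs, Atp6ap1, Atp6v0c and Tfeb, and the members that led a type.

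The members and lists were chosen with earlier results of these data known. The gate's thresholds, the joint phagocyte list and the tumour or stroma rule were set after seeing these data, the last after member values were seen. Of 14 processing alternatives, 4 were added after seeing the data: no tumour or stroma rule, no cells with a C1q UMI, no cells with a muscle marker UMI, and only the largest cluster of macrophages or classical monocytes. Python 3.11.15, numpy 2.4.6, scipy 1.17.1, pandas 2.3.3, scanpy 1.11.5 and leidenalg 0.10.2 were used.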

Additional observations from a re-analysis of the deposited data

How the results depend on the processing

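No paired analysis was possible because each group is 1 library, and for the same reason no library could be left out. The lysosomal median of macrophages was above 0 in all 12 alternatives that gave one (0.186 to 0.409), as was their V-ATPase median (0.114 to 0.246). In classical monocytes the V-ATPase median was 0.037 to 0.18 and the lysosomal one 0.063 to 0.388 over 13 alternatives. With each cell scaled alike, the lysosomal median became -0.063 in T cells, -0.101 in NK cells, 0.242 in all mononuclear phagocytes, 0.365 in classical and 0.366 in nonclassical monocytes. With cells thinned to 1000 UMIs it was -0.112, -0.102, 0.275 and, in nonclassical monocytes, 0.445. By Leiden clusters it was -0.134 in T cells, 0.047 in mononuclear phagocytes and 0.066 in classical monocytes. It was 0.068 in mononuclear phagocytes under the stricter gate, 0.264 there and 0.388 in classical monocytes without the tumour or stroma rule, and 0.063 in classical monocytes within their largest cluster.

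Smaller shifts also crossed 0. The lysosomal median of NK cells was -0.018 without the 5% deepest cells and -0.013 by Leiden clusters. That of B cells was 0.048 without haemoglobin, mitochondrial and ribosomal genes, 0.023 with ratios divided by the median ratio, 0.033 with cells scaled alike and 0.032 under the stricter gate. That of neutrophils was -0.012 thinned, -0.006 under the stricter gate and -0.135 without the deepest cells. The V-ATPase median was -0.01 in T cells when thinned, -0.048 in nonclassical monocytes when thinned and -0.111 there under the stricter gate, and -0.003 in mononuclear phagocytes under that gate.

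Numbers of members past 1.5-fold are small and moved with most settings. Except where stated, the share of all genes past that fold under the same setting is not given here. These counts, which pool both directions, are thus not read as a result about the members. With cells scaled alike there were 0 in conventional dendritic cells, 1 in classical monocytes, 1 in mononuclear phagocytes, 2 in NK cells, 3 in B cells, 4 in macrophages and 6 in nonclassical monocytes. By Leiden clusters there were 0 in classical monocytes, 1 in mononuclear phagocytes, 3 in NK cells, 4 in B cells and 4 in T cells. With at least 200 UMIs of a gene there were 0 in NK cells, neutrophils and nonclassical monocytes, and 1 in T cells and conventional dendritic cells. At no more than 10% mitochondrial UMIs there were 0 in NK cells and nonclassical monocytes and 2 in B cells. The stricter gate gave 0 in nonclassical monocytes, 1 in mononuclear phagocytes, 3 in B cells and 3 in neutrophils. Without the deepest cells there were 1 in macrophages, 1 in mononuclear phagocytes, 2 in NK cells, 3 in B cells and 4 in nonclassical monocytes. B cells had 3 with other scalings (ratios divided by the median, or haemoglobin, mitochondrial and ribosomal genes left out). Without cells holding a C1q UMI there were 2 in NK cells and 3 in B cells, and without those holding a muscle marker UMI 1 in mononuclear phagocytes, 2 in NK cells and 2 in nonclassical monocytes. Within the largest cluster there was 1 in classical monocytes and 1 in macrophages. Without the tumour or stroma rule there were 6 in classical monocytes, where 4.9% of all genes were then past 1.5-fold higher and 18.6% lower. In mononuclear phagocytes there was 1, where those shares were 2.63% and 15.1%.

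The Tcirg1 share moved as follows. With cells scaled alike it was 44% in control T cells, 42.5% and 40.5% in control and treated NK cells, 75.2% and 67.6% in mononuclear phagocytes, 74.1% and 67.8% in classical monocytes and 86.1% and 75.4% in nonclassical monocytes. Thinned, it was 51.1% in treated T cells, 41.1% in treated NK cells, 76.7% and 69% in mononuclear phagocytes, 70.5% in treated classical monocytes, 87.5% and 71.4% in nonclassical monocytes and 81.2% in control macrophages. It was 68.5% in control nonclassical monocytes at no more than 10% mitochondrial UMIs, 72.3% in control classical monocytes under the stricter gate and 72.4% there within the largest cluster. The Atp6v0d2 share of d UMIs in macrophages was 23.6% in control and 6.92% in treated cells scaled alike, 33.3% and 12.1% thinned, and 0% in the control within the largest cluster. The cause of these shifts was not tested. Settings that left fewer than 50 cells in a library gave no value: 5 settings for conventional dendritic cells (thinned, stricter gate, without the deepest cells, without C1q or muscle marker cells) and the Leiden clusters for macrophages and nonclassical monocytes. Medians and counts without C1q-holding cells were not computed for phagocytes, and the largest cluster was read only in macrophages and classical monocytes. Atp6v0d2 in every type, and Mcoln1 in 4 types, had fewer than the 50 UMIs asked of a ratio.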

Other observations

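Among the listed genes that assemble or bind the pump, Ncoa7 was named as a low extreme in 4 types. Its ratio in the other types is not given here, so no common direction is read. In conventional dendritic cells it was at 519.8 CPM in control and 250.9 CPM in treated cells (ratio 0.483, 0.398 to 0.586). It was at 96.19 CPM in control and 65.77 CPM in treated T cells (0.684, 0.617 to 0.757), at 118.8 and 93.36 CPM in classical monocytes (0.786, 0.69 to 0.897) and at 94.97 and 61.97 CPM in macrophages. Of these 4 types it passed 1.5-fold only in conventional dendritic cells and macrophages, where 9.72% and 3.86% of all measured genes were that much lower. In T cells and classical monocytes, where those shares were 4.3% and 5.73%, Ncoa7 did not pass. The conventional dendritic cells of the libraries were made up differently, as described above, and the part of this in their Ncoa7 ratio was not tested. Dmxl1, whose product takes part in pump assembly, was at 278.3 CPM in control and 180.2 CPM in treated B cells (0.648, 0.551 to 0.762).

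In B cells 13 of 14 measured autophagy genes stood lower in the treated library, with a median log2 ratio of -0.309 beside -0.086 for all genes. Only 41% of all 6019 genes measured in B cells were higher in that library. Map1lc3b, which encodes the autophagosome membrane protein LC3B, was at 215.4 and 159.4 CPM (0.74, 0.619 to 0.887), and Gabarap, of the same family, was the exception at 251.8 and 283.3 CPM (1.12, 0.964 to 1.32). In the other lymphoid types the autophagy medians were -0.122 in T cells, with 12 of 19 lower, and -0.002 in NK cells, with 10 of 19 lower. Of all measured genes, 39.6% were higher in T cells and 47.7% in NK cells. That these medians differ between types was not tested.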
